A study of Homo sapiens with 20 samples.

Results

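The interferon-stimulated genes described here were 47 protein-coding genes of 57500 gene IDs in the count files, taken from a fixed list of symbols matched to Ensembl IDs. They were followed in all 20 libraries of NTERT keratinocytes, an immortalized line of human skin keratinocytes, with and without the eIF2 kinase GCN2 (gene symbol EIF2AK4) and with and without wounding. By role they fell into 8 signaling and transcription factors, 6 RNA sensors and oligoadenylate synthetases, 15 antiviral effectors, 5 genes of the ISG15 pathway, 7 other interferon-induced genes, 3 guanylate binding proteins (GBPs) and 3 antigen processing genes. Every member of the list passed the filter on low counts in each comparison, so all 47 were tested throughout.

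Interferons bind receptors at the cell surface, and the JAK1 and TYK2 or JAK1 and JAK2 kinases then phosphorylate STAT proteins. Type I and type III interferons act mainly through ISGF3, a complex that holds STAT2 and IRF9 and binds the interferon-stimulated response element (ISRE), whereas interferon gamma acts at gamma-activated sequences (GAS). Keratinocytes respond to all of these interferons and hold a low level of the response without infection, and GCN2 is best known as a kinase that senses uncharged tRNA and dampens translation through eIF2.

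There were 4 groups of 5 libraries, and the study addressed which transcripts depend on GCN2 before wounding and at 6 h after it. WT cells carried a control guide RNA and were either left unwounded or subjected to high-density wounding (HDW), in which rows of crossed scratches bring many cells close to a wound edge. GCN2KO cells were a pool edited with CRISPR-Cas9 and a guide to EIF2AK4, not a single clone, and were likewise left unwounded or subjected to HDW. All groups shared the NTERT background and, per the labels, low calcium EpiLife medium with keratinocyte growth supplement and antibiotics. The HDW method of the study has confluent cells moved to medium with serum and raised calcium, which starts differentiation, before they are scratched. No interferon treatment is named. RNA was taken in bulk, so fewer cells of a kind and less RNA per cell cannot be told apart for any difference given here.

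The targeted gene followed its labels, with EIF2AK4 at 4152 to 4555 normalized read counts in the WT unwounded libraries, 806 to 962 in GCN2KO unwounded, 3980.2 to 4303 in WT HDW and 809.8 to 951 in GCN2KO HDW. Normalized read counts are counts divided by each library's effective size relative to the mean over the 20 libraries. The keratinocyte list (7 genes) summed to 330863 or more in every library, while TYR, a defining marker of melanocytes, was at 0 and PTPRC, a marker of leukocytes, stayed between 0 and 1.69. The fibroblast list (5 genes) summed to 666 to 1041, almost all of it COL1A1, with COL3A1 below 2. COL1A1 means were 892 and 736 in WT and GCN2KO unwounded and 753.5 and 798 in WT and GCN2KO HDW. The endothelial list summed to at most 18.2. The melanocyte list summed to at most 100.3, most of it PMEL (group means 41.2 to 58.0) and MLANA (21.1 to 38.85). The leukocyte list (5 genes) summed to 1601 to 1838 in WT unwounded, 606 to 1229 in GCN2KO unwounded, 842 to 991 in WT HDW and 395 to 974 in GCN2KO HDW, almost all of it CD14 (means 1683, 785, 916 and 577). IVL, a marker of keratinocyte differentiation, was higher in GCN2KO by 1.83 on the log2 scale before HDW and 1.96 after it, while the differentiation marker KRT1 was lower (-1.06 and -0.83). KRT1 rested on few reads, with group means of 11.2 to 22.4 normalized read counts. The basal cell marker KRT14 was lower (-0.85 and -0.77) and the basal cell marker KRT5 higher (0.50 and 0.52). Of the rest of the keratinocyte list, TP63 was lower (-0.52 and -0.43), and KRT10 (0.23 and 0.28) and DSG3 (0.12 and 0.05) lay above 0. Whether these differences or that of CD14 bear on the interferon-stimulated genes was not tested.

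Promoter sequences from RefSeq (GRCh38.p14) were found for 38 of the 47 genes. Each covers 250 bases before and 50 after the annotated start, and none was given for GBP2, IFIT2, IFITM2, IRF7, MX2, OAS2, OASL, TRIM22 and USP18. The letters GAAANNGAA (an ISRE core, either strand) were in 24 of these 38 windows, 63.2%, and in 8.29% of all 27305 promoters. The letters TTCNNNGAA (a GAS core, the same on either strand) were in 11 of 38, 28.9%, against 7.88% of all promoters, and in 4 members an ISRE match overlapped a GAS match. By role, the ISRE core was in 9 of 11 windows of antiviral effectors, 2 of 2 of GBPs and 1 of 3 of antigen processing genes. A match is a run of letters, not a measured binding site. Only 1 annotated start was searched per gene. An ISRE core of the RSAD2 window (chr2:6865791-6865830) lies inside the annotated span of CMPK2 (chr2:6840570-6866635) and was not counted for CMPK2. CMPK2 and IFI44L, the members DE in the most comparisons, are shown with other members whose results differed from theirs. Most of these share the role of CMPK2 or IFI44L, while ISG15, HERC5 and PARP14 have other roles. All members shown beside CMPK2 and IFI44L were chosen after their values were seen. CMPK2, with neither core in the 250 bases before its start, and IFI44, with an ISRE core centred at -13 (capitals), are given whole:
CMPK2 (chr2:6866636-6866885, minus strand): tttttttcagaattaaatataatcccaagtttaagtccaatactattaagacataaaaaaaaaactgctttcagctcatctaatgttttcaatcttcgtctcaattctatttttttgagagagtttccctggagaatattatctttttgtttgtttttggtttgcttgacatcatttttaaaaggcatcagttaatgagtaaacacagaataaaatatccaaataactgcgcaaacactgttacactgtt
IFI44 (chr1:78649539-78649788, plus strand): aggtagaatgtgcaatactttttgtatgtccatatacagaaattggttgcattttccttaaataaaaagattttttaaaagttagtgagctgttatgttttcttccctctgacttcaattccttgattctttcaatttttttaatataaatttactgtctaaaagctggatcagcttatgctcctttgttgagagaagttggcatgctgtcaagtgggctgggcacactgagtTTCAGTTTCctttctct
For the other genes 40 bases around an ISRE core are given, read in the direction of the gene, with every base of an ISRE match in capitals (a match cut by the edge of the window shows in part):
IFI44L (chr1:78620360-78620399, plus strand): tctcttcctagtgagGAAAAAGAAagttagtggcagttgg
IFIT1 (chr10:89392506-89392545, plus strand): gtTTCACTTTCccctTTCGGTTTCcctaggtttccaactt
IFIT3 (chr10:89327861-89327900, plus strand): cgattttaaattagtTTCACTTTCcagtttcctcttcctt
IFITM3 (chr11:320871-320910, minus strand): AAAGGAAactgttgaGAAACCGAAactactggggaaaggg
SAMD9 (chr7:93118091-93118130, minus strand): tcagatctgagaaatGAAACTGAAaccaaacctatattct
ISG15 (chr1:1013381-1013420, plus strand): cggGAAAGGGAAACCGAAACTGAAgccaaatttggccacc
HERC5 (chr4:88457031-88457070, plus strand): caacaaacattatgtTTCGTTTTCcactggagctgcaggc
IFI6 (chr1:27672261-27672300, minus strand): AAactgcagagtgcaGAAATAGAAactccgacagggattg
IFI27 (chr14:94110626-94110665, plus strand): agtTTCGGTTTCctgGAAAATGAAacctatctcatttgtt
PARP14 (chr3:122680795-122680834, plus strand): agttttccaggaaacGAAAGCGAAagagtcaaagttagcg
ISG15 held 3 such matches and IFIT1 held 2, and neither gene was called between genotypes before or after HDW. The ISRE core also stood before the start used for IFI44L, IFIT3, HERC5 and PARP14, which fell after HDW in WT. It stood likewise before IFITM3, SAMD9, IFI27 and IFI6, which did not pass the test there. The printed windows of IFI44L, IFIT3, IFITM3, ISG15 and IFI27 lie inside the annotated spans of those genes. Of the IFI44L window, 18 of 40 bases are in annotated exons. Of the 24 members with an ISRE core, 15 were lower in unwounded GCN2KO by adjusted p and 4 higher (median log2 fold change -0.42). Of the 14 without it, 11 were lower and 1 higher (median -0.61). Among all genes tested, 33.1% were lower and 33.4% higher, with a median of 0.00424. The difference between members with and without the core was not tested.

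Levels were compared between genes per kb of exon, as mean normalized read counts per kb in WT unwounded cells. The length was that of all annotated exons of a gene joined, not of the transcripts present, so the order rests partly on the annotation. IFI6, a mitochondrial and endoplasmic reticulum protein that limits apoptosis and flavivirus replication, was highest at 15184. IFITM3 (4799), ISG15 (4451), IFI27 (3263), BST2 (2891), SAMD9 (2164), IFITM1 (1859), UBE2L6 (1663) and IFITM2 (1099) followed. IRF9 (28.6) and SP110 (41.9) were lowest. GBP3 stood at 333 per kb, above GBP2 (132) and GBP1 (105), and TAP1 (885) and PSMB8 (677) above PSMB9 (177). In GCN2KO the order of the GBPs changed, since GBP2 was at 20.6 per kb before HDW and 15.1 after it, below GBP1 at 33.9 and 58.5.

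Libraries of 1 group differed in the level of the whole set together. In WT HDW, 44 of the 47 genes were above their group mean in replicate 2 and 39 in replicate 3, against 2 in replicate 1 and 2 in replicate 4. Among the WT unwounded libraries, 45 were above the mean in replicate 2 and 41 in replicate 4, against 5 in replicate 1 and 4 in replicate 3. In GCN2KO unwounded, 43 were above the mean in replicate 1 and 5 in replicate 2, and in GCN2KO HDW the numbers ran from 10 to 35. Replicates 1 and 2 of WT HDW held 34589787 and 34209033 total counts, and replicates 1 and 4 of WT unwounded held 14083504 and 30505904. Whether total counts bear on these deviations was not tested. Over the 20 libraries the deviations of 2 genes from their group means had a median Pearson r of 0.69 over the 1081 pairs of members (1029 above 0), beside -7.59e-05 over all pairs of genes, a description in which every pair shares the same libraries. SAMD9 ran against the others (median r with the other members -0.354), and GBP2 (0.325) and GBP1 (0.353) were the next lowest. Within the ISG15 pathway the median r was 0.791, within the GBPs 0.489 and within the antigen processing genes 0.347. This spread within groups enters the SE given with each gene.

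**Figure D1:**
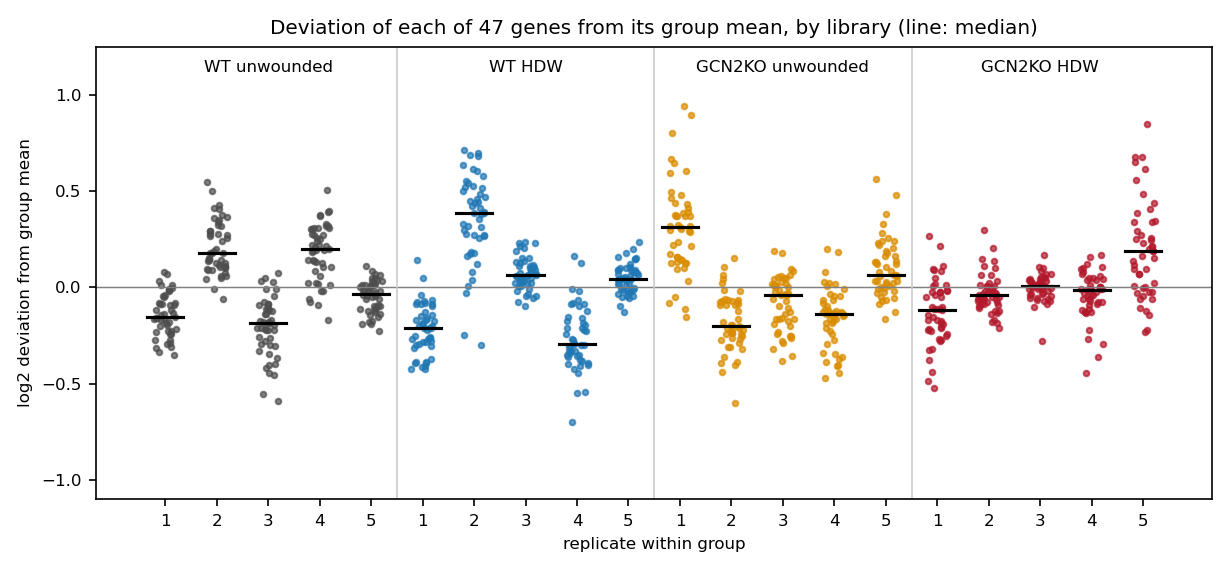
Deviation of each of the 47 genes from its group mean (log2) in each of the 20 libraries, with a line at the median of the genes. The medians run from -0.292 in WT HDW replicate 4 to 0.389 in WT HDW replicate 2, and most genes of a library lie on the same side of 0.

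In unwounded cells, loss of GCN2 went with lower levels of most of the interferon-stimulated genes. A gene is called differentially expressed (DE) here when its log2 fold change reaches 1 in size and its adjusted p is 0.05 or less by edgeR's quasi-likelihood test, and "called by adjusted p" drops the requirement on size. Of the 47 genes, 13 (27.7%) were DE and lower in GCN2KO, against 8.22% of all genes tested, and 33 (70.2%) were lower by adjusted p, against 33.1%. None was DE and higher (0 by edgeR and 0 by DESeq2, with 5 at an unadjusted p below 0.05), where 8.21% of all genes tested were, and 5 were higher by adjusted p (33.4% of all genes). The median log2 fold change over the 47 genes was -0.56, beside 0.00424 over all genes tested. The 13 DE genes were GBP2, IFITM1, CMPK2, MX2, IFI44L, GBP1, IFI35, IFITM2, BST2, STAT2, OAS2, XAF1 and IFIT2, and in all 13 every GCN2KO unwounded library was below every WT unwounded library. This only describes genes already picked as DE on the same libraries, and the share of all genes without overlap was not counted. IRF7, IRF9, DDX60, IFIT1, IFIT5, ISG15, HERC6, USP18 and IFI6 were not called. The leukocyte list, nearly all CD14, was lower in these GCN2KO libraries too, by the ranges given above.

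After HDW the same genotype comparison gave fewer calls and more of them upward. DE genes lower in GCN2KO numbered 8 (17%), against 7.83% of all genes, and 1 gene, SAMD9L, was DE and higher, against 7.1%. By adjusted p, 20 (42.6%) were lower and 9 (19.1%) higher, against 35.8% and 35.9% of all genes, so the share lower was near that of all genes, and 18 were not called. The median over the 47 was -0.20, beside 0.00197 over all genes. GBP2, IFITM1, MX2, CMPK2, IFI35, IFI44L and BST2 were DE and lower in both wounding states, and OASL was DE only after HDW, though its log2 fold change before HDW was -0.90 ± 0.12 (SE, adjusted p = 6.27e-06). By adjusted p, 20 genes were lower and 5 (IFIH1, SAMD9, SAMD9L, IFI27 and EPSTI1) were higher in both states. The share of all genes called the same way in both states, by either rule, was not counted, so these joint counts only describe the members. IRF1, TRIM22 and GBP3 were called lower in GCN2KO before HDW and higher after it.

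**Figure D2:**
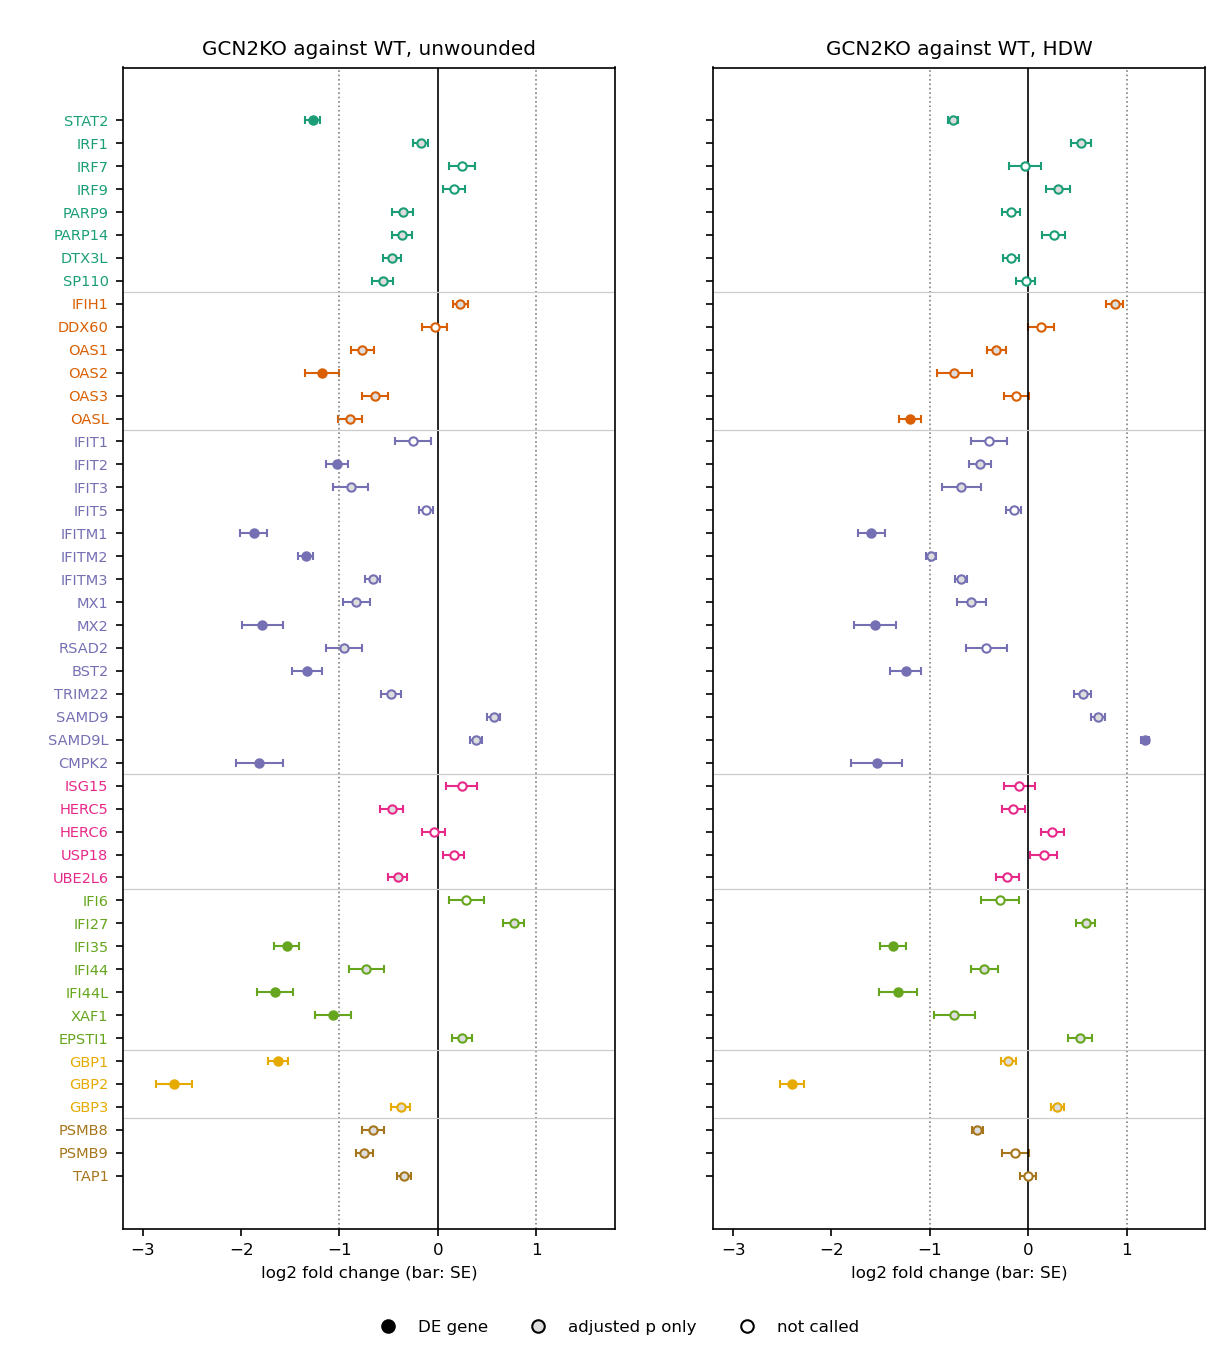
Log2 fold change of GCN2KO against WT for each of the 47 genes (bars are SE), before HDW in the left panel and after it in the right. Filled points are DE genes, grey points were called by adjusted p alone and open points were not called, and the dotted lines mark -1 and 1. GBP2 lies farthest below 0 in both panels, and SAMD9L is the filled point above 1 after HDW.

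In WT cells most of the list fell after HDW. By the DE rule 7 genes (14.9%) were lower, against 1.55% of all genes tested, and by adjusted p 37 (78.7%) were, against 25.2%. No gene was DE and higher (0 by edgeR, 0 by DESeq2 and 1 at an unadjusted p below 0.05, against 2.62% of all genes by the DE rule), and OASL alone was higher by adjusted p, where 26.1% of all genes were. The median over the 47 genes was -0.62, beside -0.00236 over all genes tested. The 7 DE genes were TRIM22, PSMB9, IFIT3, IFI44L, CMPK2, IRF1 and RSAD2, and their log2 fold changes lay between -1.31 and -1.001, close to the threshold. Their number was 2 (TRIM22 and PSMB9) without WT HDW replicate 4, 3 without WT HDW replicate 1 or WT unwounded replicate 2, 4 without WT unwounded replicate 4 and 10 at most when any library was left out.

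In GCN2KO cells no member of the list was DE after HDW in either direction by edgeR or by DESeq2. At an unadjusted p below 0.05, 26 genes were lower and 3 higher. By adjusted p, 19 (40.4%) were lower, against 10.8% of all genes tested, and 2 were higher, GBP1 and SAMD9L, against 11.9%. DE genes made up 0.196% (lower) and 0.475% (higher) of all genes tested in this comparison, so it gave few calls of any kind. The median over the 47 genes was -0.26, beside -9.66e-04 over all genes tested. Of the 19 genes lower in GCN2KO, 18 were also lower after HDW in WT, and ISG15 was the other. The share of all genes lower in both genotypes was not counted. Without GCN2KO HDW replicate 5, CMPK2 (log2 fold change -1.05, adjusted p = 0.0116) and IFIT3 (-1.08, adjusted p = 0.00163) became DE. Of the 21 calls in GCN2KO, 12 were lost when some library was left out. Those of DDX60, IFI35, IFI44, IFI44L, MX1 and OAS1 were lost without GCN2KO unwounded replicate 1 or 5 or GCN2KO HDW replicate 1, 2, 3 or 4 (adjusted p 0.054 to 0.112). That of RSAD2 was lost without the same libraries except GCN2KO HDW replicate 3 (adjusted p up to 0.0847) and that of UBE2L6 without GCN2KO HDW replicate 1, 2, 3 or 4 (up to 0.0556). PARP14, ISG15, TRIM22 and SAMD9L are given with their values below.

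Responses to HDW differed by genotype for 13 of the 47 genes, and for all 13 the response in GCN2KO was the more positive. This difference of responses (GCN2KO minus WT, an interaction term over the 20 libraries) was DE for 2 genes, GBP1 and TRIM22, against 1.16% of all genes tested, and called by adjusted p for 13 (27.7%), against 11.2%. No member had an interaction below 0 that passed either rule (0 by edgeR, 0 by DESeq2 and 0 at an unadjusted p below 0.05), where 2.15% of all genes were DE and 12.5% were called by adjusted p in that direction. The median interaction was 0.28, beside -0.00902 over all genes. By estimate, 38 of the 47 had the lower (more negative) log2 fold change after HDW in WT, and 36 had estimates below 0 in both genotypes. The same counts over all genes were not made. Members varied together within groups (median r 0.69), so the signs of the 47 are not separate observations. GBP1 alone was DE when WT unwounded replicate 2, WT HDW replicate 1 or 4, or GCN2KO unwounded replicate 2 or 4 was left out. The comparisons share groups (the 5 WT unwounded libraries stand in the genotype comparison before HDW and in the HDW comparison in WT, and likewise for the other groups), so a gene's fold changes in them are not independent of each other.

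**Figure D3:**
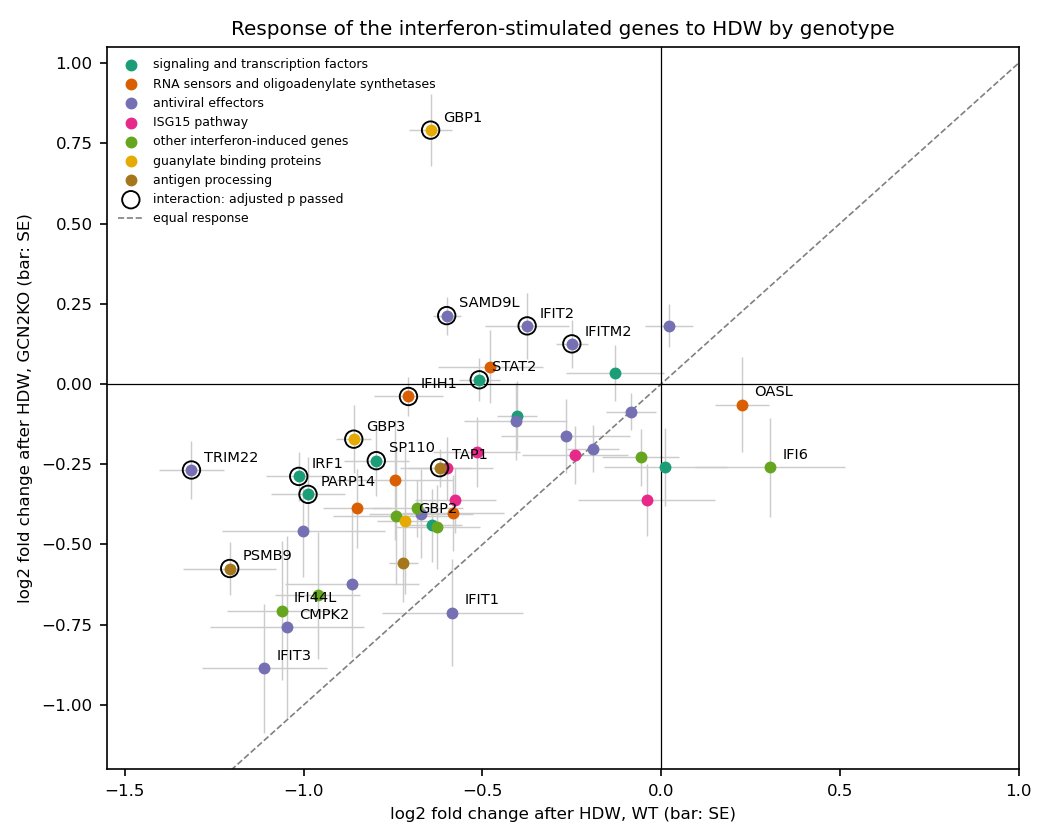
Log2 fold change after HDW in WT (x axis) and in GCN2KO (y axis) for the 47 genes, with SE as bars. Ringed points are the 13 genes whose responses differed by adjusted p, and all lie above the dashed line of equal response.

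**Figure D4:**
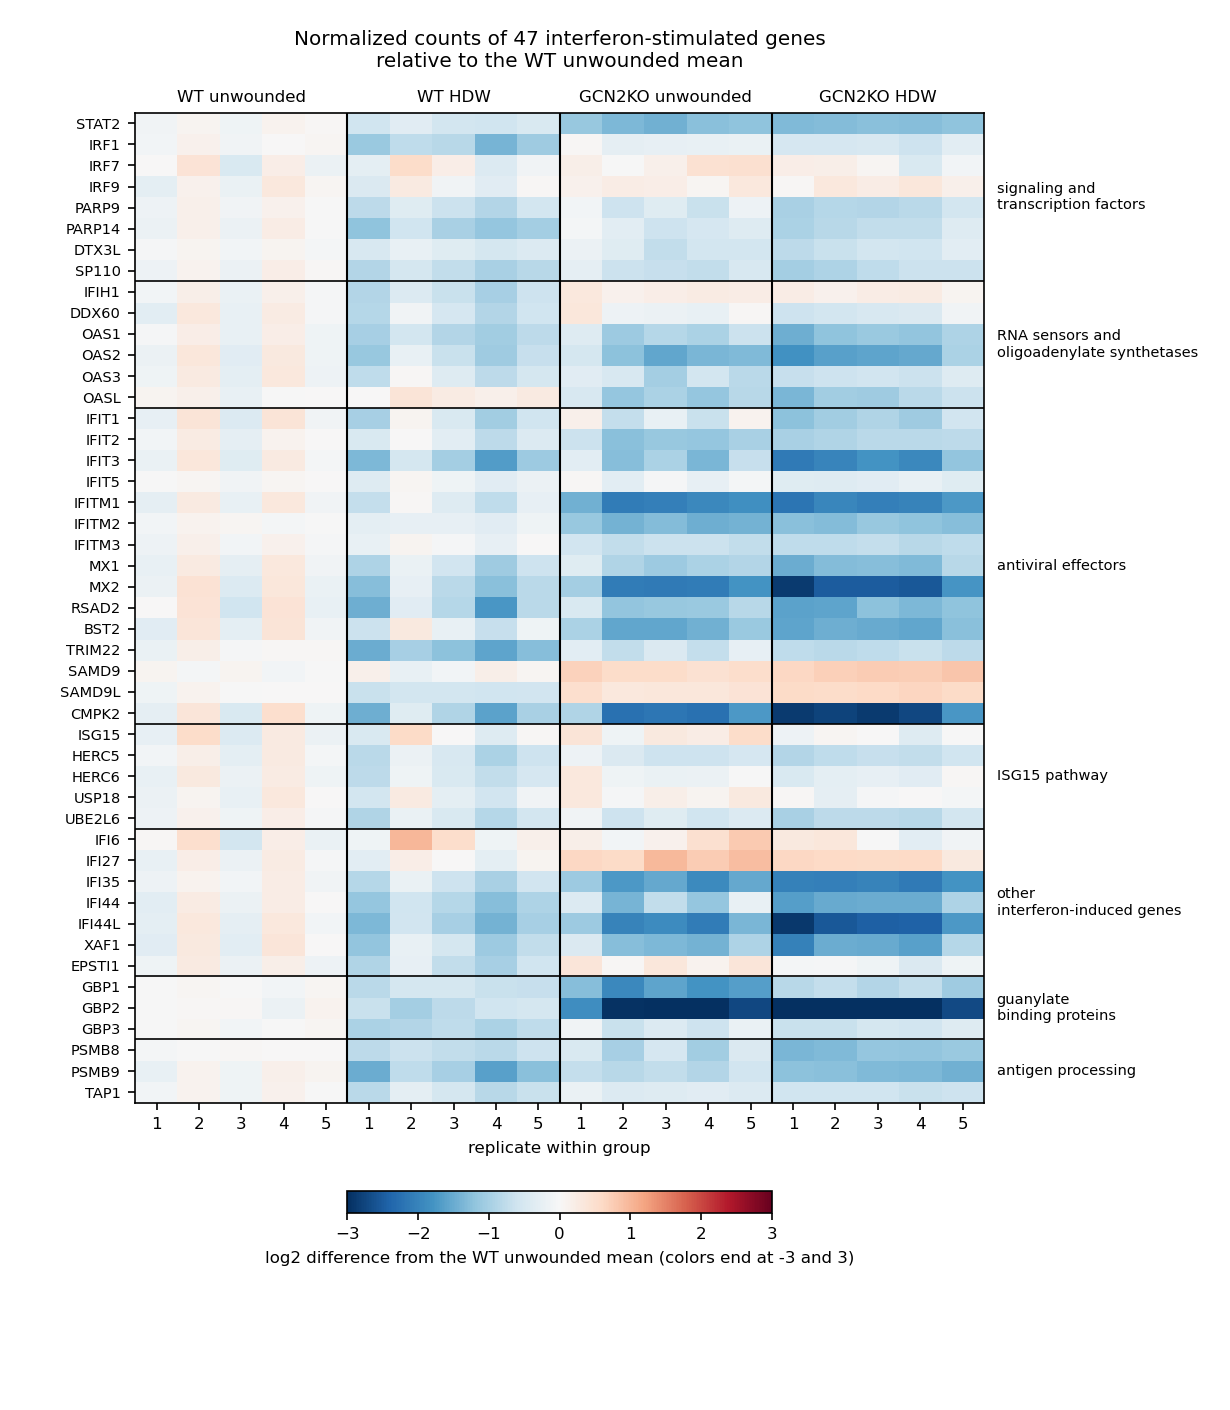
Log2 difference of each library from the mean of the WT unwounded libraries for the 47 genes (rows, grouped by role) in the 20 libraries (columns, grouped), with the color scale ending at -3 and 3. GBP2, IFITM1, MX2 and CMPK2 are low across all 10 GCN2KO libraries, and SAMD9 and IFI27 are high there.

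Among the signaling and transcription factors, 6 of 8 were lower in unwounded GCN2KO by adjusted p (median -0.36), against 33.1% of all genes tested. By the DE rule 1 of the 8 was lower, against 8.22%. Here and below, listed values are normalized read counts in replicates 1 to 5 and values given with an SE are log2 fold changes. STAT2 (ENSG00000170581, chr12:56341597-56360203, minus strand), the ISGF3 subunit that carries the activation domain, gave 3432, 3967, 3413, 4009 and 3825 normalized read counts in WT unwounded and 1685, 1469, 1375, 1567 and 1599.9 in GCN2KO unwounded. After HDW it gave 2477, 2951, 2523, 2477 and 2702 in WT and 1489.6, 1511, 1549, 1541 and 1619 in GCN2KO. The GCN2KO libraries were below the WT libraries in both states without overlap, by 2.42-fold before HDW (log2 fold change -1.27 ± 0.073 SE, adjusted p = 4.65e-10) and 1.7-fold after it (-0.77 ± 0.052 SE, adjusted p = 1.64e-08). STAT2 fell after HDW in WT (-0.51 ± 0.058 SE, adjusted p = 2.87e-06), and in GCN2KO its log2 fold change was 0.01 (adjusted p = 0.906).

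IRF1 (ENSG00000125347, chr5:132440440-132508719, minus strand), a transcription factor induced by interferon gamma, gave 1898, 2195, 1856, 2043 and 2080.1 in WT unwounded and 927, 1193, 1136, 768 and 961 in WT HDW, a fall of 2.02-fold (-1.01 ± 0.091 SE, adjusted p = 2.61e-07). In GCN2KO it gave 2068, 1672, 1687, 1716 and 1747 before HDW, with replicate 1 far above the rest, and 1419, 1425, 1447, 1317 and 1615 after it. The fall in GCN2KO was -0.29 ± 0.076 (SE, adjusted p = 0.0167) and the difference of responses 0.72 ± 0.13 (SE, adjusted p = 0.00021), and after HDW every GCN2KO library was above every WT library (0.54 ± 0.098 SE, adjusted p = 0.000207). The lower level before HDW (-0.18 ± 0.073 SE, adjusted p = 0.0441) was lost (adjusted p up to 0.106) when any library but WT unwounded replicates 1 and 3 and GCN2KO unwounded replicate 1 was left out, and 22.9% of IRF1 exon bases overlap the antisense gene IRF1-AS1. IRF7, a factor that amplifies type I interferon genes, and IRF9, the DNA-binding subunit of ISGF3, were not called in unwounded GCN2KO. IRF7 was at 1298 ± 293 (SD, n = 5) in WT unwounded and 1527 ± 228 in GCN2KO unwounded, a log2 fold change of 0.25 (adjusted p = 0.12). IRF9 was at 185 ± 31.7 and 209 ± 14.3 (0.16, adjusted p = 0.213), and its log2 fold change after HDW of 0.30 (adjusted p = 0.0357) was lost when any library but WT HDW replicates 2 and 5 and GCN2KO HDW replicates 1 and 5 was left out (adjusted p up to 0.0945). Of IRF9, 23.9% of exon bases are shared with another gene on the same strand.

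PARP14 and PARP9, members of the ADP-ribosyltransferase family, had the highest mean counts of this group over the 20 libraries, though DTX3L lay above PARP9 in both HDW groups. PARP14 was at 7507 ± 934 (SD, n = 5) in WT unwounded, 5810.3 ± 891 in GCN2KO unwounded, 3793 ± 666 in WT HDW and 4542 ± 704 in GCN2KO HDW. It fell after HDW in WT (-0.99 ± 0.10 SE, adjusted p = 1.25e-06) by more than in GCN2KO (-0.34 ± 0.12 SE, adjusted p = 0.0451), with an interaction of 0.63 ± 0.17 (SE, adjusted p = 0.00731). PARP9 was at 4459 ± 427, 3474 ± 633, 2863 ± 402 and 2542 ± 284 in the same groups, lower in unwounded GCN2KO (-0.36 ± 0.11 SE, adjusted p = 0.00814). DTX3L, the E3 ligase partner of PARP9 that starts from the same stretch of chromosome 3, was lower in unwounded GCN2KO at -0.46 (adjusted p = 0.000294), and SP110, a nuclear body protein, at -0.56 (adjusted p = 0.000162). After HDW neither was called between genotypes (log2 fold changes -0.18, adjusted p = 0.0605 and -0.03, adjusted p = 0.822), and the SP110 responses to HDW differed (0.54 ± 0.15 SE, adjusted p = 0.00912). The fall of PARP14 in GCN2KO was lost when any library but GCN2KO unwounded replicates 3 and 4 and GCN2KO HDW replicate 5 was left out (adjusted p up to 0.107).

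All 4 genes of the oligoadenylate synthetase family were lower in unwounded GCN2KO by adjusted p, against 33.1% of all genes tested, and neither RNA sensor was. Family members with synthetase activity make oligoadenylates, which activate RNase L. OAS2 (ENSG00000111335, chr12:112978395-113011723, plus strand) was DE in unwounded GCN2KO, with 4462, 6467, 3995, 6272 and 4675 in WT unwounded and 3498, 2181, 1719, 1969 and 2015 in GCN2KO unwounded, a 2.27-fold lower level without overlap (-1.18 ± 0.17 SE, adjusted p = 1.75e-05). After HDW it gave 2291, 4385, 3207, 2442 and 3127 in WT and 1439, 1638, 1706, 1747 and 2640.3 in GCN2KO, groups that overlapped (-0.75 ± 0.18 SE, adjusted p = 0.00167). OAS1 (-0.77, adjusted p = 2.48e-05) and OAS3 (-0.64, adjusted p = 0.000549) were also lower before HDW, and OAS3 was at 6112 ± 1184 (SD, n = 5) in WT unwounded and 3914 ± 719 in GCN2KO unwounded. Each of OAS1, OAS2 and OAS3 fell after HDW in WT, with log2 fold changes of -0.85, -0.75 and -0.48. OASL, a family member without synthetase activity that enhances RIG-I signaling, did otherwise. It gave 513, 543, 419, 482 and 493 in WT unwounded, 349, 218, 251, 218 and 274 in GCN2KO unwounded, 495, 643, 581, 543 and 588 in WT HDW and 189, 238, 232, 278 and 312 in GCN2KO HDW. OASL was 2.3-fold lower in GCN2KO after HDW (-1.202 ± 0.11 SE, adjusted p = 3.24e-07), while its rise in WT (0.23 ± 0.076 SE, adjusted p = 0.0219) was lost without WT unwounded replicate 3 (adjusted p = 0.0684).

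IFIH1 encodes MDA5, a sensor of long double-stranded RNA, and was higher in GCN2KO. Its level was 3722 ± 413 (SD, n = 5) in WT unwounded and 4343 ± 209 in GCN2KO unwounded, which overlapped (0.23 ± 0.076 SE, adjusted p = 0.0147), and 2283 ± 371 and 4198 ± 222 after HDW, which did not (0.88 ± 0.090 SE, adjusted p = 8.11e-07). The first of these calls was lost without WT unwounded replicate 3 (adjusted p = 0.0592). IFIH1 fell in WT (-0.71 ± 0.097 SE, adjusted p = 2.06e-05) but was not called in GCN2KO (-0.04, adjusted p = 0.677), an interaction of 0.66 ± 0.12 (SE, adjusted p = 0.000354). DDX60, a helicase that assists RIG-I, was not called between genotypes in either state (-0.03, adjusted p = 0.84 and 0.13, adjusted p = 0.397) and fell after HDW in WT (-0.58, adjusted p = 0.00321).

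Of the 15 antiviral effectors, 11 were lower in unwounded GCN2KO by adjusted p and 2 higher, against 33.1% and 33.4% of all genes tested. By the DE rule 6 of the 15 were lower, against 8.22%, and the median log2 fold change was -0.89. The IFITM proteins, which block the fusion of viruses with cell membranes, were lower in both states. IFITM1 (ENSG00000185885, chr11:310041-315272, plus strand) gave 2526, 3671, 2630.2, 3806 and 2851 in WT unwounded and 1127, 713, 739, 795 and 849 in GCN2KO unwounded, 3.66-fold lower (-1.87 ± 0.14 SE, adjusted p = 6.07e-09). After HDW it gave 1872, 3113, 2330.0, 1797 and 2593 in WT and 663, 789, 741, 757 and 918 in GCN2KO (-1.598 ± 0.14 SE, adjusted p = 1.47e-07). No GCN2KO library reached the lowest WT library in either state. IFITM1 fell with HDW in WT (-0.41 ± 0.14 SE, adjusted p = 0.0274), a call lost without WT unwounded replicate 2 or 4 or WT HDW replicate 1 or 4 (adjusted p up to 0.0862). IFITM2 (ENSG00000185201, chr11:303655-309397, plus strand) gave 1663, 1902, 1826, 1689 and 1748 in WT unwounded and 802, 655, 715, 636 and 659 in GCN2KO unwounded (-1.34 ± 0.074 SE, adjusted p = 2.71e-10). It gave 1442, 1489.8, 1492, 1387 and 1617 in WT and 737, 712, 807, 769 and 728 in GCN2KO after HDW (-0.99 ± 0.051 SE, adjusted p = 1.5e-09). IFITM3 (ENSG00000142089, chr11:319676-329475, minus strand) was at 13649.6 ± 1266 (SD, n = 5) in WT unwounded and 8587 ± 416 in GCN2KO unwounded (-0.66 ± 0.072 SE, adjusted p = 6.07e-07), also without overlap and not DE. HDW moved IFITM3 in neither genotype past the threshold (-0.09, adjusted p = 0.324 in WT and -0.09, adjusted p = 0.288 in GCN2KO). The genes lie side by side on chromosome 11 and are near-identical in parts of their coding sequence, so the division of reads among them is uncertain.

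MX2, a dynamin-like GTPase active against HIV-1, BST2, the tetherin that holds virions at the cell surface, and CMPK2, a mitochondrial nucleotide kinase, were DE in both genotype comparisons. MX2 (ENSG00000183486, chr21:41361999-41409393, plus strand) gave 2061, 3112, 1754, 2909.9 and 2031 in WT unwounded and 1145, 543, 536, 542 and 671 in GCN2KO unwounded (3.44-fold lower, -1.78 ± 0.21 SE, adjusted p = 1.17e-06). It gave 957, 1952, 1317, 964 and 1314 in WT HDW and 314, 407, 411, 395 and 683 in GCN2KO HDW (-1.56 ± 0.22 SE, adjusted p = 1.61e-05). BST2 (ENSG00000130303, chr19:17402939-17405630, minus strand) gave 2436, 4009.5, 2528, 4033 and 2907 in WT and 1605, 1055, 1057, 1149.8 and 1431 in GCN2KO before HDW, a 2.52-fold lower level in GCN2KO (-1.33 ± 0.15 SE, adjusted p = 1.19e-06). In the HDW libraries BST2 stood at 1980.2, 3830.0, 2671, 1911 and 2858 in WT and 1029, 1124, 1083, 1055 and 1293 in GCN2KO (-1.25 ± 0.16 SE, adjusted p = 6.8e-06), and its change with HDW was not called in WT (-0.27, adjusted p = 0.235) or GCN2KO (-0.16, adjusted p = 0.315). For MX2 and BST2 the genotypes did not overlap in either state.

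CMPK2 (ENSG00000134326, chr2:6840570-6866635, minus strand), whose upstream bases are printed above, was DE in 3 comparisons. It gave 405, 629.9, 358, 697 and 445 in WT unwounded, 260.3, 103, 108, 104 and 149 in GCN2KO unwounded, 179, 379, 261, 161 and 249 in WT HDW and 66.7, 71.1, 66.3, 73.6 and 146 in GCN2KO HDW. Replicate 5 of GCN2KO HDW stood above the other 4. CMPK2 was 3.51-fold lower in GCN2KO before HDW (-1.81 ± 0.24 SE, adjusted p = 5.84e-06) and 2.91-fold lower after it (-1.54 ± 0.26 SE, adjusted p = 9.93e-05), and fell with HDW in WT (-1.05 ± 0.22 SE, adjusted p = 0.000818). RSAD2, encoding viperin, an enzyme that makes a chain-terminating nucleotide, lies next to CMPK2 on the opposite strand. RSAD2 (ENSG00000134321, chr2:6865557-6898239) gave 612, 805, 403, 802 and 519.5 in WT unwounded and 218, 477, 334, 181 and 345 in WT HDW, groups that overlapped though the fall was DE (-1.001 ± 0.23 SE, adjusted p = 0.00182). It gave 446, 265, 277, 282 and 340.2 in GCN2KO unwounded and 200.2, 203, 260.0, 237 and 264 in GCN2KO HDW, lower than WT before HDW (-0.96 ± 0.18 SE, adjusted p = 0.0002) and not called after it (-0.43, adjusted p = 0.0835). MX1, the cytoplasmic antiviral GTPase, was at 12627 ± 2412 (SD, n = 5) in WT unwounded and 7076 ± 1514 in GCN2KO unwounded (-0.83 ± 0.14 SE, adjusted p = 6.11e-05), with replicate 1 of GCN2KO unwounded above the other 4. Exons of CMPK2 (8% of bases) and RSAD2 (6.2%) overlap each other on opposite strands.

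The IFIT genes, which encode proteins that bind viral RNA, lie together on chromosome 10 and were not lowered alike. IFIT2 (ENSG00000119922, chr10:89283694-89309271) gave 1210.3, 1511, 1054, 1376 and 1293 in WT unwounded and 817, 533, 578, 568 and 652 in GCN2KO unwounded, DE and without overlap (-1.03 ± 0.11 SE, adjusted p = 7.93e-07). After HDW it gave 931, 1299.7, 1019, 744 and 968 in WT and 654, 681, 736, 732 and 743 in GCN2KO (-0.49 ± 0.11 SE, adjusted p = 0.00119), and its responses to HDW differed (0.54 ± 0.17 SE, adjusted p = 0.0213). IFIT3 (ENSG00000119917, chr10:89327307-89377473) was the IFIT gene with a DE fall after HDW in WT, with 3239, 4709, 2886, 4514 and 3567 before and 1449, 2577, 1846, 1154 and 1736 after (-1.11 ± 0.18 SE, adjusted p = 8.11e-05). In GCN2KO it gave 2996, 1531, 1932, 1447 and 2293 before HDW and 851, 948, 1075, 969.7 and 1630.0 after it (-0.89 ± 0.20 SE, adjusted p = 0.00841). IFIT1 was not called between genotypes in either state (-0.25 ± 0.18 SE, adjusted p = 0.228 and -0.40 ± 0.19 SE, adjusted p = 0.0653), and IFIT5 was not either (-0.12, adjusted p = 0.167 and -0.15, adjusted p = 0.0895). IFIT1 fell after HDW in GCN2KO (-0.71 ± 0.17 SE, adjusted p = 0.0101), and its fall in WT (-0.58 ± 0.20 SE, adjusted p = 0.0219) was lost when WT unwounded replicate 2 or 4 or WT HDW replicate 1 or 4 was left out (adjusted p up to 0.0684). The fall of IFIT5 in WT (-0.19 ± 0.072 SE, adjusted p = 0.0366) was lost when any library but WT unwounded replicate 3 and WT HDW replicates 2 and 3 was left out (adjusted p up to 0.0919).

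SAMD9, SAMD9L and TRIM22 were higher in GCN2KO after HDW. SAMD9 and SAMD9L are neighboring paralogs on chromosome 7 whose products restrict poxviruses and slow translation. SAMD9L (ENSG00000177409, chr7:93130056-93148385, minus strand) gave 1461, 1693, 1574, 1603 and 1601 in WT unwounded, 2264, 1967, 2015, 2005 and 2118 in GCN2KO unwounded, 994, 1078, 1073, 1044 and 1056 in WT HDW and 2362, 2333, 2398, 2488 and 2348 in GCN2KO HDW. The GCN2KO libraries were above the WT libraries in both states, by 1.31-fold before HDW (0.39 ± 0.062 SE, adjusted p = 4.17e-05) and 2.27-fold after it (1.19 ± 0.038 SE, adjusted p = 3.06e-11). SAMD9L fell with HDW in WT (-0.60 ± 0.040 SE, adjusted p = 1.01e-08) and the interaction was 0.80 ± 0.069 (SE, adjusted p = 2.48e-08). Its rise in GCN2KO (0.21 ± 0.059 SE, adjusted p = 0.0212) was lost without GCN2KO unwounded replicate 3 or GCN2KO HDW replicate 3 or 4 (adjusted p up to 0.0561). SAMD9 was at 14836 ± 765 (SD, n = 5) in WT unwounded and 21902 ± 1348 in GCN2KO unwounded (0.57 ± 0.068 SE, adjusted p = 1.87e-06), and 15089.6 ± 1745 and 24659 ± 1227 after HDW (0.71 ± 0.071 SE, adjusted p = 6.49e-07). HDW did not move SAMD9 past the threshold in either genotype (0.02, adjusted p = 0.816 in WT and 0.18, adjusted p = 0.0601 in GCN2KO).

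TRIM22 (ENSG00000132274, chr11:5689610-5737089, plus strand), an E3 ligase that restricts retroviruses, gave 7574, 9798, 8411, 8811 and 8847 in WT unwounded and 3072, 4318, 3661, 2882 and 3563 in WT HDW, a 2.49-fold fall without overlap (-1.31 ± 0.092 SE, adjusted p = 1.86e-08). In GCN2KO it gave 6970.2, 5207, 6405, 5266 and 7292 before HDW and 5070.1, 4946, 5135, 5487 and 5024 after it, which overlapped (-0.27 ± 0.092 SE, adjusted p = 0.0479). The difference between these responses was DE, with an interaction of 1.03 ± 0.14 (SE, adjusted p = 9.93e-06). Between genotypes TRIM22 was lower before HDW (-0.48 ± 0.098 SE, adjusted p = 0.000433) and higher after it (0.55 ± 0.087 SE, adjusted p = 5.41e-05), without overlap in either state. The fall in GCN2KO was lost when any library but GCN2KO unwounded replicates 2 and 4 was left out (adjusted p up to 0.123).

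The ISG15 pathway, in which UBE2L6 and HERC5 conjugate the ubiquitin-like protein ISG15 to targets and USP18 removes it, comprised 5 genes. By adjusted p 2 were lower in unwounded GCN2KO, against 33.1% of all genes tested, a share near that of all genes, and none was DE. After HDW 0 of 5 were called by adjusted p, against 35.8% of all genes lower and 35.9% higher. ISG15 (ENSG00000187608, chr1:1001138-1014540) gave 3162, 5473, 2837, 4514 and 3309 in WT unwounded and 4908, 3401, 4552, 4393 and 5475 in GCN2KO unwounded, groups that overlapped (0.24 ± 0.16 SE, adjusted p = 0.187). The HDW libraries gave 2728, 5547, 3747, 2882 and 3837 in WT and 3370.3, 3868, 3742, 2852 and 3726 in GCN2KO (-0.09 ± 0.16 SE, adjusted p = 0.611). ISG15 was not called after HDW in WT (-0.04, adjusted p = 0.878), and its fall in GCN2KO (-0.36 ± 0.11 SE, adjusted p = 0.0335) was lost when any library but GCN2KO unwounded replicates 2 and 4 and GCN2KO HDW replicates 2 and 5 was left out (adjusted p up to 0.0902). HERC5 (-0.47 ± 0.11 SE, adjusted p = 0.00167) and UBE2L6 (-0.41 ± 0.10 SE, adjusted p = 0.00182) were the genes lower before HDW. HERC6 was at 3176 ± 556 (SD, n = 5) in WT unwounded and 3078 ± 502 in GCN2KO unwounded (-0.04, adjusted p = 0.773). USP18, also the inhibitor of the type I receptor, was not called in any comparison (0.16, adjusted p = 0.196 and 0.16, adjusted p = 0.329 between genotypes, -0.24, adjusted p = 0.192 and -0.22, adjusted p = 0.085 with HDW). HERC5, HERC6 and UBE2L6 fell after HDW in WT (log2 fold changes -0.60, -0.52 and -0.58).

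Among the other interferon-induced genes, IFI44L, a homolog of the nucleotide-binding protein IFI44, was DE in 3 comparisons. IFI44L (ENSG00000137959, chr1:78619902-78646145, plus strand) gave 4756, 7250.0, 4838, 7246 and 5451 in WT unwounded, 2715, 1438, 1561, 1355 and 2261 in GCN2KO unwounded, 2273, 3915, 2887, 2164 and 2928 in WT HDW and 781, 994, 1061, 1087 and 1755 in GCN2KO HDW. It was 3.16-fold lower in GCN2KO before HDW (-1.66 ± 0.18 SE, adjusted p = 7.04e-07), 2.5-fold lower after it (-1.32 ± 0.20 SE, adjusted p = 3.1e-05) and fell with HDW in WT (-1.06 ± 0.15 SE, adjusted p = 3.52e-05), each without overlap. Its neighbor IFI44 was lower by less (-0.73 ± 0.18 SE, adjusted p = 0.00186 before HDW and -0.45 ± 0.14 SE, adjusted p = 0.0106 after it) and fell with HDW in WT (-0.96 ± 0.12 SE, adjusted p = 7.23e-06). IFI35 (ENSG00000068079, chr17:43006740-43014456, plus strand), a leucine zipper protein that binds NMI, gave 624, 739, 653, 799.9 and 641 in WT unwounded and 323, 209, 239, 184 and 236 in GCN2KO unwounded (-1.54 ± 0.13 SE, adjusted p = 2.1e-08). With HDW it gave 380.2, 602, 447, 350.0 and 463 in WT and 168, 167, 172, 159 and 199 in GCN2KO (-1.37 ± 0.13 SE, adjusted p = 4.29e-07), again without overlap.

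XAF1, which antagonizes the apoptosis inhibitor XIAP, gave 399, 619, 402, 652 and 505 in WT unwounded and 374, 209, 197, 188 and 268 in GCN2KO unwounded (-1.07 ± 0.18 SE, adjusted p = 8.22e-05). It gave 223, 432, 352, 235 and 304 in WT and 123, 178, 176, 162 and 279 in GCN2KO after HDW (-0.75 ± 0.21 SE, adjusted p = 0.00511). Its groups overlapped after HDW only. Of XAF1 exon bases, 38.3% overlap PRAL on the opposite strand. IFI27 and EPSTI1 went the other way. IFI27, a mitochondrial protein, was at 13521 ± 2078 (SD, n = 5) in WT unwounded and 23015 ± 2784 in GCN2KO unwounded (0.77 ± 0.11 SE, adjusted p = 7.25e-06), and 13019 ± 2071 and 19489.9 ± 1684 after HDW (0.58 ± 0.096 SE, adjusted p = 8.79e-05), without overlap in either state. EPSTI1 was higher in GCN2KO after HDW (0.53 ± 0.12 SE, adjusted p = 0.00127), and before HDW (0.25 ± 0.10 SE, adjusted p = 0.044) its call was lost when any library but replicates 2 and 4 of either genotype was left out (adjusted p up to 0.134). IFI6, at 14212 ± 3845 in WT unwounded and 17333 ± 4195 in GCN2KO unwounded, was not called in any comparison (0.29, adjusted p = 0.154 and -0.29, adjusted p = 0.2 between genotypes, 0.30, adjusted p = 0.244 and -0.26, adjusted p = 0.232 with HDW), and 23.1% of its exon bases are shared with LINC02574.

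The 3 GBPs, GTPases that coat intracellular pathogens and are strongly induced by interferon gamma, were all lower in unwounded GCN2KO. With HDW in WT all 3 fell by adjusted p, with log2 fold changes from -0.86 to -0.645. After HDW their differences between genotypes ranged from -2.40 to 0.29. GBP2 (ENSG00000162645, chr1:89106132-89150456, minus strand) gave 940.0, 979.6, 969, 844 and 1025 in WT unwounded and 262, 121, 118, 101 and 144 in GCN2KO unwounded, a 6.42-fold lower level (-2.68 ± 0.18 SE, adjusted p = 3.05e-09). After HDW GBP2 gave 595, 468, 547, 629 and 661 in WT and 99.2, 107, 99.8, 91.95 and 146 in GCN2KO, a 5.29-fold lower level (-2.403 ± 0.12 SE, adjusted p = 1.29e-09). It had the most negative log2 fold change of the 47 genes in both genotype comparisons, fell with HDW in WT (-0.72 ± 0.080 SE, adjusted p = 2.33e-06) and was not called in GCN2KO (-0.43 ± 0.23 SE, adjusted p = 0.183).

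GBP1 (ENSG00000117228, chr1:89051882-89065360, minus strand) gave 638, 667, 636, 602 and 662 in WT unwounded and 265, 167, 214, 186 and 204 in GCN2KO unwounded, 3.08-fold lower (-1.62 ± 0.10 SE, adjusted p = 1.08e-09). Its levels were 363, 445, 444, 404 and 394 in WT HDW and 360.3, 391, 347, 381 and 305 in GCN2KO HDW. GBP1 fell in WT (-0.65 ± 0.060 SE, adjusted p = 4.09e-07) and rose in GCN2KO (0.79 ± 0.11 SE, adjusted p = 0.000671), without overlap in either genotype, and this difference was the largest interaction of the 47 genes (1.42 ± 0.13 SE, adjusted p = 4.27e-08). After HDW the genotypes overlapped, and the remaining difference (-0.20 ± 0.078 SE, adjusted p = 0.0306) was lost without WT HDW replicate 2 or 3 or GCN2KO HDW replicate 3 or 5 (adjusted p up to 0.0756). GBP3 (ENSG00000117226, chr1:89006679-89022894, minus strand) gave 1423, 1474, 1337, 1408 and 1489 in WT unwounded and 1331, 899.8, 1070.0, 934 and 1234 in GCN2KO unwounded (-0.38 ± 0.096 SE, adjusted p = 0.0025). It gave 733, 769, 845, 739 and 846 in WT HDW and 889.9, 893, 987, 956 and 1095 in GCN2KO HDW, where GCN2KO was the higher (0.29 ± 0.066 SE, adjusted p = 0.00108). The GBP3 libraries of the genotypes did not overlap in either state, and the interaction was 0.68 ± 0.12 (SE, adjusted p = 0.000283). GBP1 and GBP3 are close paralogs, so reads shared between them could be divided differently, and 8.6% of GBP2 exon bases are shared with GBP7.

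The antigen processing genes, the immunoproteasome subunits PSMB8 and PSMB9 and the peptide transporter subunit TAP1, lie next to each other on chromosome 6. PSMB9 (ENSG00000240065, chr6:32844136-32859851) gave 503, 637, 541, 649 and 625 in WT unwounded and 208, 344, 294, 188 and 248 in WT HDW, a DE fall of 2.31-fold (-1.21 ± 0.13 SE, adjusted p = 1.73e-06). In GCN2KO it gave 359, 329.6, 354, 318 and 398 before HDW and 250.2, 244, 233, 229 and 215 after it (-0.58 ± 0.083 SE, adjusted p = 0.000674), and the responses differed (0.62 ± 0.17 SE, adjusted p = 0.00891). PSMB8 (ENSG00000204264, chr6:32840717-32844679) was at 2274, 2343, 2415, 2379 and 2374 in WT unwounded and 1718, 1179, 1652, 1136 and 1748 in GCN2KO unwounded (-0.66 ± 0.11 SE, adjusted p = 5.81e-05). It was at 1366, 1516, 1411, 1347 and 1526 in WT and 907, 942, 1048, 1032 and 1083 in GCN2KO after HDW (-0.52 ± 0.057 SE, adjusted p = 1.86e-06). TAP1 (ENSG00000168394, chr6:32845209-32853816) was at 3929, 4500.3, 3806, 4584 and 4148 in WT and 3639, 3158, 3211, 3302 and 3164 in GCN2KO before HDW (-0.34 ± 0.070 SE, adjusted p = 0.000387). It was at 2406, 3396, 2902, 2336 and 2622 in WT and 2751, 2767, 2756, 2648 and 2719 in GCN2KO after it, where the genotypes overlapped (-0.002 ± 0.083 SE, adjusted p = 0.983). All 3 genes fell with HDW in both genotypes without overlap, PSMB8 with log2 fold changes of -0.72 and -0.56 in WT and GCN2KO and TAP1 with -0.62 and -0.26. The TAP1 interaction (0.35 ± 0.11 SE, adjusted p = 0.0249) was lost without WT unwounded replicate 4, WT HDW replicate 1 or WT HDW replicate 4 (adjusted p 0.0527 to 0.0537). Of PSMB8 and TAP1 exon bases, 17.3% and 14.2% overlap genes on the opposite strand.

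**Figure D5:**
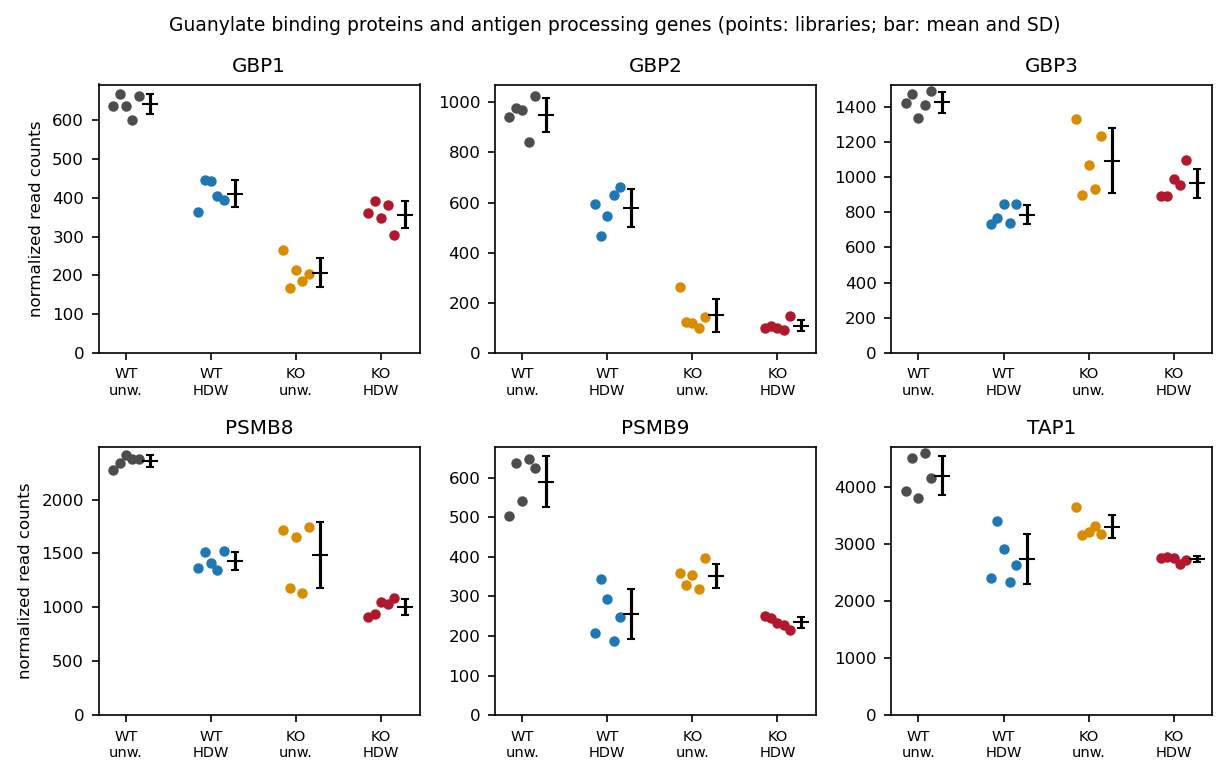
Normalized read counts of GBP1, GBP2, GBP3, PSMB8, PSMB9 and TAP1 in each of the 20 libraries, by group, with the mean and SD of 5. GBP2 stays low in both GCN2KO groups, GBP1 rises from 207 to 357 with HDW in GCN2KO, and PSMB8, PSMB9 and TAP1 fall with HDW in both genotypes.

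Set side by side, the antiviral effectors, GBPs and antigen processing genes had median log2 fold changes of -0.89, -1.62 and -0.66 in unwounded GCN2KO against WT. After HDW the same medians were -0.58, -0.20 and -0.13. With HDW in WT they were -0.58, -0.72 and -0.72, and in GCN2KO -0.20, -0.17 and -0.56. Lower calls by adjusted p in GCN2KO went from 11 to 9 of 15 antiviral effectors, from 3 to 2 of 3 GBPs and from 3 to 1 of 3 antigen processing genes between the unwounded and the HDW comparison. Over all genes tested the shares lower were 33.1% and 35.8%, so the 1 of 3 antigen processing genes lay near that of all genes. In GCN2KO, HDW lowered 5 of 15 antiviral effectors, 0 of 3 GBPs (GBP1 rose) and 3 of 3 antigen processing genes by adjusted p, against 10.8% of all genes tested. With 3 genes in each of the smaller groups these counts describe the genes named and were not tested as differences between groups.

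The interferon ligands were at or near 0. IFNA2, IFNW1, IFNG and IFNL2 had no counts in any of the 20 libraries, and IFNB1 reached 3.34 normalized read counts at most. IFNK, the keratinocyte interferon kappa, averaged 9.91, 7.08, 13.4 and 11.3 and IFNE 13.2, 15.2, 12.02 and 22.04 in WT and GCN2KO unwounded and WT and GCN2KO HDW. Of these ligands IFNE alone was called, higher in GCN2KO after HDW (0.91 ± 0.29 SE, adjusted p = 0.0116). Among 6 receptor genes, IFNGR2 of the interferon gamma receptor was DE and lower in GCN2KO before HDW (-1.19 ± 0.097 SE, adjusted p = 2.45e-08) and after it (-1.07 ± 0.071 SE, adjusted p = 1.51e-08). IFNLR1 of the type III receptor was DE before HDW (-1.05 ± 0.099 SE, adjusted p = 1.1e-07) and called by adjusted p after it (-0.97 ± 0.12 SE, adjusted p = 3.48e-06). IFNAR1 was not called between genotypes (-0.10, adjusted p = 0.196 and 0.004, adjusted p = 0.942), IFNAR2 (-0.31, adjusted p = 0.00319) and IFNGR1 (-0.29, adjusted p = 0.0366) were lower and IL10RB higher (0.33, adjusted p = 0.000446) in unwounded GCN2KO.

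A further list of 60 pathway genes, ligands and receptors included, gave 1 DE gene higher and 9 lower among 47 tested in unwounded GCN2KO (8.21% and 8.22% of all genes). By adjusted p 5 were higher and 27 lower, against 33.4% and 33.1%. After HDW these were 0 and 6 DE, of 48 tested (7.1% and 7.83% of all genes), and 9 and 25 by adjusted p, against 35.9% and 35.8%. With HDW in WT, 2 of 49 were DE and lower (1.55% of all genes), and by adjusted p 7 were higher and 30 lower, against 26.1% and 25.2%. Among the other GTPases, GBP4 was lower in GCN2KO before HDW (-3.46 ± 0.17 SE, adjusted p = 8.15e-11) and after it (-2.58 ± 0.27 SE, adjusted p = 9.05e-07) and fell with HDW in WT (-1.76 ± 0.092 SE, adjusted p = 1.04e-09). GBP6 was lower in both states (-3.11 ± 0.17 SE, adjusted p = 2.82e-10 and -2.79 ± 0.14 SE, adjusted p = 1.36e-09). The interferon-induced chemokine genes CXCL10 (-2.995, adjusted p = 3.58e-07 and -2.51, adjusted p = 1.25e-06) and CXCL11 (-2.53, adjusted p = 6.26e-08 and -1.85, adjusted p = 8.56e-08) were lower in both states as well. In unwounded GCN2KO, the kinase gene IKBKE (-1.76 ± 0.077 SE, adjusted p = 2.89e-11), the tapasin gene TAPBP (-1.12 ± 0.079 SE, adjusted p = 4.03e-09) and the third immunoproteasome subunit gene PSMB10 (-1.11 ± 0.12 SE, adjusted p = 3.96e-07) were lower, and the chaperone gene CALR was higher (1.14 ± 0.11 SE, adjusted p = 1.35e-07). IKBKE remained DE after HDW (-1.19 ± 0.068 SE, adjusted p = 3.36e-09). TLR3, the endosomal sensor of double-stranded RNA, was DE and lower with HDW in WT (-1.02 ± 0.097 SE, adjusted p = 4.92e-07), and SOCS1, an inhibitor of JAK kinases, had the only DE interaction of this list (-1.07 ± 0.37 SE, adjusted p = 0.0348). In GCN2KO no gene of the list, of 47 tested, was DE with HDW (0 by edgeR), where 0.475% of all genes were DE and higher and 0.196% lower. By adjusted p 2 were higher and 10 lower, against 11.9% and 10.8% of all genes.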

How the data were processed

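RNA from WT and GCN2KO NTERT cells, unwounded or 6 h after HDW (5 libraries each), was sequenced in bulk. The authors deposited raw counts of reads per gene for each library, and per the labels Trimmomatic, STAR and featureCounts were run on GRCh38. Strand, annotation release and the handling of reads in overlapping genes are not given in the sources used here, which limits genes that overlap others. Total counts ranged from 14083504 to 34611570 per library. Of 57500 IDs, 56410 matched GENCODE 44, which gave symbols, positions and exon lengths. Counts were tested in R 4.3.3 with edgeR 4.0.16 (TMM, filterByExpr with a minimum of 10 counts and a total of 15, quasi-likelihood test, Benjamini-Hochberg over all genes tested), for each pair of groups on its 10 libraries and for the interaction on all 20. SE is the size of the log2 fold change over the square root of F. DE genes had a log2 fold change reaching 1 in size and an adjusted p of 0.05 or less, the limits of the study, which used DESeq2. Deviations from group means used log2 with 0.5 added.

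The alternatives tried were DESeq2 1.42.0 and its size factors, scaling by library size only, testing without the filter, requiring a mean of 50 counts, replicate number as a block, all 20 libraries in one fit, adjusted p alone and each library left out. Scripts were tested on simulated data. Members, lists and tests were chosen with earlier results of these data known. Members were named in full where they were DE or among the 2 of their role with the highest mean count, and pathway genes where they were DE, ligands or receptors. Results for some listed genes are not reported here. The study calls its n biological replicates, and all libraries come from the NTERT line, so p-values measure the spread between replicates of 1 line.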

Additional observations from a re-analysis of the deposited data

Results flagged for a closer look

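Of 188 tests of a gene's highest or lowest library against the other 4 of its group (47 genes in 4 groups, critical value 0.71), 7 stood apart, where chance gives about 1 in 20. In GCN2KO unwounded replicate 1, IRF1 (2068 normalized read counts) and MX1 (9721) were far above the other libraries. In GCN2KO HDW replicate 5, CMPK2 (146) and IFI44 (819.8) were far above and IFI27 (16518) far below. USP18 was far below the rest in GCN2KO HDW replicate 2 (259) and EPSTI1 in GCN2KO HDW replicate 4 (428).

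Responses to HDW differed between genotypes by the interaction test for 13 genes. As the log2 response in GCN2KO minus that in WT, the differences were 1.42 for GBP1, 1.03 for TRIM22, 0.80 for SAMD9L, 0.72 for IRF1, 0.68 for GBP3, 0.66 for IFIH1, 0.63 for PARP14, 0.62 for PSMB9, 0.54 for IFIT2, 0.54 for SP110, 0.51 for STAT2, 0.36 for IFITM2 and 0.35 for TAP1. GBP1 and SAMD9L fell in WT and rose in GCN2KO by adjusted p, and the other 11 fell in WT and in GCN2KO either fell by less or were not called.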

How the results depend on the processing

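No member that was called changed direction under any alternative. Dropping the requirement on size gave the larger counts (higher, lower) of 5 and 33 for GCN2KO against WT unwounded, 9 and 20 after HDW, 1 and 37 with HDW in WT, 2 and 19 with HDW in GCN2KO, and 13 above 0 for the interaction. When each library was left out, DE genes lower in GCN2KO numbered 11 to 16 before HDW and 8 to 9 after it, DE genes lower with HDW 2 to 10 in WT and 0 to 2 in GCN2KO, and DE interactions above 0 numbered 1 to 2. The cause was not tested. With the replicate number as a block the DE counts were 0 and 13, 1 and 8, 0 and 7, 0 and 0, and 2 and 0, as without it, and by adjusted p IRF1 (0.0507) and EPSTI1 (0.0681) before HDW lost their call under the block, as did PARP14, OAS1, MX1, RSAD2, TRIM22, SAMD9L, ISG15 and UBE2L6 with HDW in GCN2KO. Neither the labels nor the study say whether the numbers pair the libraries. Deviations from group means of same-numbered libraries had mean correlations of 0.0228 and 0.0332 between genotypes (before and after HDW) and 0.0107 and -0.109 between wounding states (WT and GCN2KO). Of 10 libraries, 1, 3, 3 and 0 correlated best with their own number. The lack of pairing by number is thus a hint from the data and not from the design. Under another planned setting, GBP1 after HDW lost its call with library size alone (adjusted p = 0.0623), and IFIT1 (DESeq2), IFITM1 (DESeq2) and OASL (library size alone or all 20 libraries in one fit) lost theirs with HDW in WT. After HDW the median genotype difference of the signaling genes (-0.03) was 0.09, and that of the ISG15 pathway (-0.09) was 0.09, without WT HDW replicate 2. Depth limits the ligand genes, of which 1 or 2 passed the filter in each comparison.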

Other observations

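Of 14 genes of nucleic acid sensing and interferon induction tested, 8 were lower and 0 higher in unwounded GCN2KO by adjusted p, against 33.1% and 33.4% of all genes. With HDW in WT 11 were lower and 3 higher, against 25.2% and 26.1% of all genes. Of 15 MHC class I and peptide loading genes, 8 were lower and 3 higher in unwounded GCN2KO, against the same 33.1% and 33.4%, where B2M, the light chain, had a log2 fold change of -0.28 (edgeR adjusted p = 0.0337). TAP2, the partner of TAP1, had log2 fold changes with HDW of 0.22 in WT and 0.34 in GCN2KO, above 0, while those of TAP1 were below 0 (-0.62 and -0.26). B2M and TAP2 were chosen after their values were seen.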
